A study of Mus musculus with 6 samples.

Results

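The enzymes that write, copy and remove methylation on DNA were followed in basal keratinocytes of mouse embryos that had lost histone H3K9 methyltransferases. The 10 genes were Dnmt1, Dnmt3a, Dnmt3b, Dnmt3l, Uhrf1, Hells, Tet1, Tet2, Tet3 and Tdg. They were chosen by name, as the DNA methyltransferases, their co-factors and the enzymes of demethylation, and each was found once among the 55536 genes of the deposited count table. All 10 were among the 20622 genes with enough counts to be tested.

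Methyl groups on cytosine are placed mostly at CpG, a C followed by a G. Dnmt1 restores them on the new strand after replication, guided by Uhrf1, which reads CpG methylated on a single strand and also binds H3K9me3, the mark that Suv39h1, Suv39h2 and Setdb1 make. Dnmt3a and Dnmt3b add methylation to unmethylated sites, Dnmt3l is a relative without catalytic activity that stimulates them, mainly in germ cells, and Hells is a chromatin remodeller that opens DNA to them. Tet1, Tet2 and Tet3 oxidise 5-methylcytosine, and Tdg cuts out some of the oxidised forms so that repair can put back an unmethylated cytosine.

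RNA was sequenced from 3 Ctrl and 3 TKO samples of Epcam+ α6+ basal cells, which were sorted from dorsal skin at E16.5. TKO embryos were Suv39h1 f/f, Suv39h2-/-, Setdb1 f/f and K14CreERT2+, and Ctrl embryos had the same floxed and null alleles but were K14CreERT2-, so that both groups lacked functional Suv39h2. All had been exposed to tamoxifen, which activates the recombinase in cells that use the keratin 14 promoter, from E9.5 to E11.5 by the study's list of litters, where the knockout is described as mosaic. The depth, as total counts, was 102159175, 136515436 and 104422632 for Ctrl (replicates 1, 2 and 3) and 116308383, 108957256 and 118413082 for TKO. By the labels, 1 sample of each group was female (Ctrl replicate 1, TKO replicate 2). The labels do not say whether samples came from separate litters, and the p-values measure the spread between these samples only. The libraries came from sorted cells in bulk, in which fewer cells with a transcript and less transcript in each cell cannot be told apart.

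Values are given as CPM, counts scaled to a library of 1000000 after scaling by the trimmed mean of M-values. The basal markers Krt5, Krt14, Itga6, Itgb4 and Trp63 were abundant, with Krt5 the highest at 10849 CPM ± 2317 (SD, n = 3) in Ctrl and 8018 ± 1014 in TKO. Transcripts that mark other cells were present too. The suprabasal keratin Krt1 was between 9778 and 10073 CPM in Ctrl and between 6100.3 and 8516 in TKO, and 6 fibroblast genes, led by Col1a1, summed to between 1203 and 3358. Langerhans and T cell markers Cd207 and Cd3e were at or near 0, whereas the other immune markers, Ptprc, Cd74 and Tyrobp, were between 0.416 and 4.07 CPM.

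The floxed genes Setdb1 and Suv39h1 bear on the labels, and Suv39h2, null in both groups, does not. Setdb1 was 126, 118 and 121 CPM in Ctrl and 95.3, 62.3 and 74.9 in TKO, with every TKO sample below every Ctrl sample. Its log2 fold change of -0.65 ± 0.16 (SE) had an adjusted p of 0.286 in edgeR's quasi-likelihood test, 0.0449 in DESeq2 and 0.00498 in edgeR without the low-count filter. Suv39h1 was 83.7 ± 5.10 CPM in Ctrl and 78.0 ± 10.5 in TKO, and Suv39h2 16.2 ± 0.784 and 17.5 ± 1.46 (SD, n = 3). Counts over a whole gene need not fall when the floxed part alone is removed, and all 3 of these genes share exonic bases with genes on the other strand.

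CpG, the letters these enzymes act on, were counted in the RefSeq promoter windows of the members, from 250 bases before to 50 after each annotated start. All 10 genes had a window and 17 windows were given for them. Tet2 held 57 CpG in its window, the Dnmt3a starts 46, 47 and 18, Hells 34, Dnmt3b 30, Tdg 26, Tet3 22 and Tet1 17, against a median of 7 over all 32851 windows of the same length. Dnmt1 had 33, 12 and 2 CpG at its starts, the last of them below the median, and Uhrf1 had 12 and 33. Dnmt3l, which is used mainly by germ cells, held 6, 4 and 3 at its starts, below the median at each. The letters GGGCGG, searched on both strands, were in 13 of the 17 windows, of 9 of the 10 genes, and in 35.7% of all windows. CCAAT, searched likewise, was in 6 of 17 and in 37.4% of all, and TATAAA was in 0 of 17 and in 13.6% of all. These matches describe the letters only, and no methylation was measured in these libraries.

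The start regions of Dnmt3b and Tet1, the members whose groups did not overlap, are shown beside that of Dnmt3l, the least abundant member, for the contrast in CpG. The bases are those of the RefSeq window that lie before the first annotated base of the gene in GRCm38.p6, 5′ to 3′ on the strand of the gene, with CpG in capitals. Dnmt3b is at chr2:153649199-153649410 on the plus strand (212 bases, 16 CpG), Tet1 at chr10:62887470-62887574 on the minus strand (105 bases, 7 CpG) and Dnmt3l at chr10:78042037-78042286 on the plus strand (250 bases, 5 CpG).
Dnmt3b: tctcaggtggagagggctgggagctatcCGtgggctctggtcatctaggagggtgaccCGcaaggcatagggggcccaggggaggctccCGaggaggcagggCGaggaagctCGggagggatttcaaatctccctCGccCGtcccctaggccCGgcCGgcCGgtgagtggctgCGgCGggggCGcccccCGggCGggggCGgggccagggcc
Tet1: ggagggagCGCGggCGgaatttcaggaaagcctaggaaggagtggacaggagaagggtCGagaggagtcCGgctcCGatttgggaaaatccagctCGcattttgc
Dnmt3l: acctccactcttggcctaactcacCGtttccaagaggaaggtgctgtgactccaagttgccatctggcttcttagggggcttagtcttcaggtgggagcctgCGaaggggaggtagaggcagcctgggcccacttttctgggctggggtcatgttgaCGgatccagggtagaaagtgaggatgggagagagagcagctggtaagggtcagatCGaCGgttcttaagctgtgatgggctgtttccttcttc

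None of the 10 enzymes was called changed in TKO. A call needed an adjusted p under 0.05 and a fold over 2 in either direction in edgeR's quasi-likelihood test, which called 0.131% of all tested genes higher (27 genes) and 0% lower. DESeq2 called 0.936% higher and 0.102% lower, and it too called none of the 10. The median log2 fold change of the 10 was 0.12, against 0.01 over all tested genes, and 8 of the 10 were above 0, where 51.9% of all tested genes were. Without a fold threshold the number called was still 0. At an unadjusted p under 0.05, Dnmt3b and Tet1 were higher and no member was lower, where 4.06% of all tested genes were higher and 2.02% lower.

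**Figure D1:**
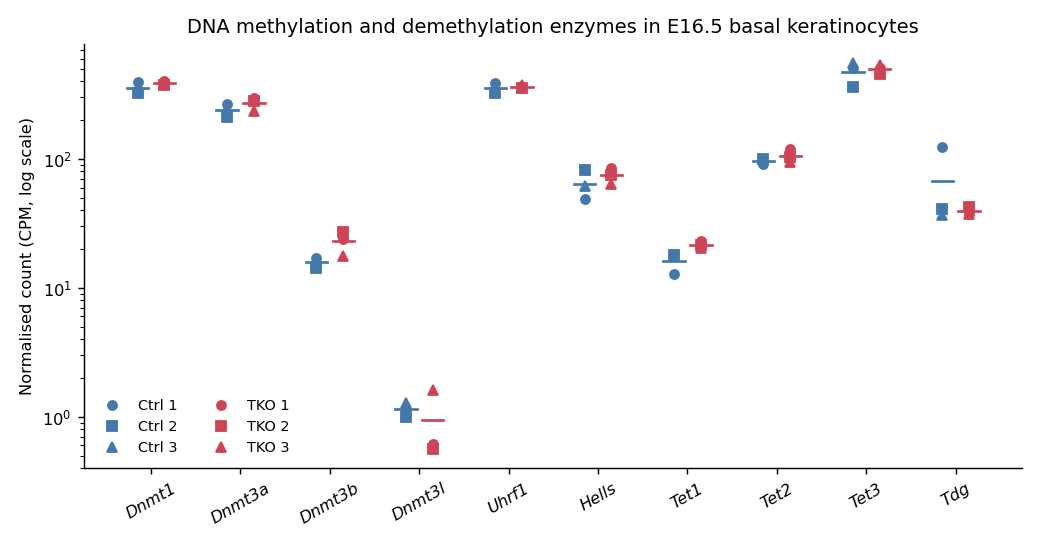
Normalised counts (CPM, log scale) of the 10 enzymes in each of the 3 Ctrl (blue) and 3 TKO (red) samples, with a horizontal line at each group mean. Ctrl and TKO points overlap for 8 genes and separate for Dnmt3b and Tet1, and the Ctrl 1 point of Tdg (123) lies far above its other 5 points (36.6 to 42.3).

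Among the enzymes that place methylation, Dnmt1 (ENSMUSG00000004099, chromosome 9, 20907206 to 20959888 in GRCm38.p6), the maintenance methyltransferase, was 393, 327 and 351 CPM in Ctrl replicates 1, 2 and 3 and 402, 373 and 384 in TKO replicates 1, 2 and 3. The ranges overlapped, and the log2 fold change was 0.11 ± 0.14 (SE, 95% interval -0.19 to 0.42). Dnmt3a (ENSMUSG00000020661, chromosome 12, 3801559 to 3914443), a de novo methyltransferase, was 266, 210.0 and 246 CPM in Ctrl and 297, 283 and 234 in TKO. Its groups overlapped through TKO replicate 3, and its log2 fold change was 0.17 ± 0.15 (-0.17 to 0.51). For both genes the upper end of the interval is below the fold of 2 used for a call.

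Dnmt3b (ENSMUSG00000027478, chromosome 2, 153649411 to 153687730), the other de novo enzyme, was less abundant. It was 16.9, 14.2 and 16.7 CPM in Ctrl and 23.9, 27.4 and 17.8 in TKO, so that every TKO sample was above every Ctrl sample, although TKO replicate 3 was above Ctrl replicate 1 by a small margin. Groups did not overlap, in the same direction, for 6.35% of all tested genes. The log2 fold change was 0.53 ± 0.19 (SE, 95% interval 0.11 to 0.95), a fold of 1.44, and it did not pass over all genes (edgeR, adjusted p = 0.658; DESeq2, adjusted p = 0.353). It was 0.68 without TKO replicate 3 and 0.39 without TKO replicate 2. A long non-coding gene on the other strand, Dnmt3bos, shares 208 exonic bases with it and was between 0.238 and 0.797 CPM. Dnmt3c, a methyltransferase of male germ cells that is 92.7% identical to Dnmt3b over 1107 bases, held 28 counts over the 6 libraries together.

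Dnmt3l (ENSMUSG00000000730, chromosome 10, 78042287 to 78063622) was the rarest member. It was 1.13, 0.998 and 1.29 CPM in Ctrl and 0.620, 0.561 and 1.63 in TKO, from between 62 and 198 counts a library, and TKO replicate 3 was the highest of all 6 while the other TKO samples were the lowest. The log2 fold change was -0.28 ± 0.48 (SE), with a 95% interval of -1.36 to 0.80, so a fall of 2-fold in this gene was not detectable with this spread between the TKO samples. Without TKO replicate 3 the log2 fold change was -0.95, and without TKO replicates 1 or 2 it was -0.06 and -0.02. Aire, on the other strand, shares 67 exonic bases with it and was at most 0.462 CPM.

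Uhrf1 (ENSMUSG00000001228, chromosome 17, 56303337 to 56323486), which links H3K9me3 and maintenance methylation, was 389, 322 and 345 CPM in Ctrl and 352, 354 and 372 in TKO. All 3 TKO values lay inside the Ctrl range. Its log2 fold change was 0.03 ± 0.14 (SE, 95% interval -0.27 to 0.33), with a sign that turned when Ctrl replicate 2 was left out (-0.03). Hells (ENSMUSG00000025001, chromosome 19, 38930262 to 38970470) was 49.1, 82.1 and 61.3 CPM in Ctrl and 84.6, 75.5 and 63.8 in TKO. It was lowest in Ctrl replicate 1, the groups overlapped, and the log2 fold change was 0.22 ± 0.19 (-0.22 to 0.65), or 0.06 without Ctrl replicate 1 and 0.43 without Ctrl replicate 2.

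**Figure D2:**
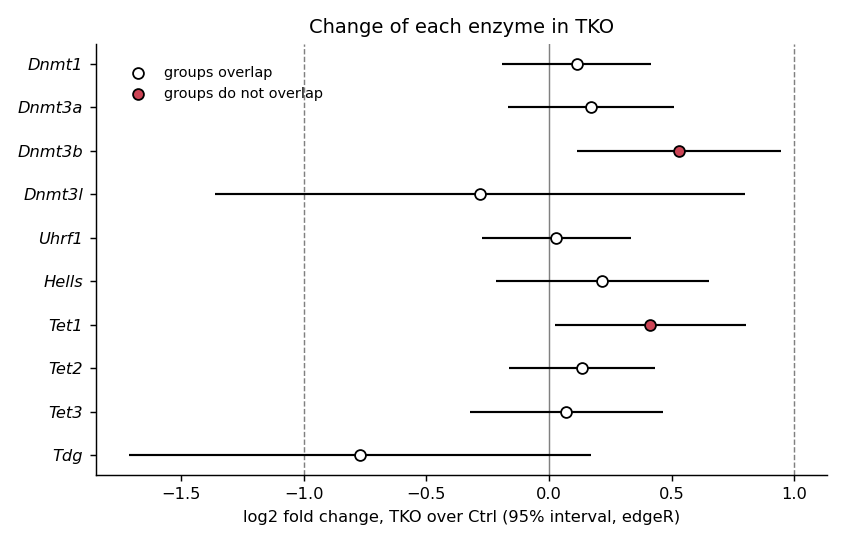
Log2 fold change of each enzyme, TKO over Ctrl, from edgeR with 3 samples a group; lines are 95% intervals, dashed lines mark a fold of 2 in each direction, and red points mark genes whose Ctrl and TKO samples do not overlap. The intervals of Dnmt3b (0.11 to 0.95) and Tet1 (0.03 to 0.80) lie above 0 and those of the other 8 genes include it.

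Among the enzymes of demethylation, Tet1 (ENSMUSG00000047146, chromosome 10, 62804570 to 62887469) was the rarest dioxygenase. It was 12.9, 18.0 and 17.9 CPM in Ctrl and 23.2, 21.3 and 20.5 in TKO. Every TKO sample was above every Ctrl sample, as for 6.35% of all tested genes, and Ctrl replicate 1 was the lowest. The log2 fold change was 0.41 ± 0.17 (SE, 95% interval 0.03 to 0.80), a fold of 1.33, and it did not pass over all genes (edgeR, adjusted p = 0.785; DESeq2, adjusted p = 0.634). Without Ctrl replicate 1 it was 0.27.

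Tet2 (ENSMUSG00000040943, chromosome 3, 133463677 to 133545136) was 90.7, 99.8 and 99.5 CPM in Ctrl and 120.5, 103 and 94.6 in TKO. TKO replicate 3 lay inside the Ctrl range, and the log2 fold change was 0.13 ± 0.13 (SE, 95% interval -0.16 to 0.43). Tet3 (ENSMUSG00000034832, chromosome 6, 83362373 to 83457208) had the highest counts of all 10 members, at 506, 364 and 552 CPM in Ctrl and 504, 458 and 532 in TKO. The TKO values again lay inside the Ctrl range, the log2 fold change was 0.07 ± 0.18 (-0.32 to 0.46), and it was -0.09 without Ctrl replicate 2, the lowest sample. Bola3, on the other strand, shares 1512 exonic bases with Tet3, and its own count was between 6.26 and 8.87 CPM.

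Tdg (ENSMUSG00000034674, chromosome 10, 82629814 to 82650799), the glycosylase that excises some oxidised forms of methylcytosine, had the largest difference of the 10, and it came from 1 library. Tdg was 123 CPM in Ctrl replicate 1 but 40.8 and 36.6 in Ctrl replicates 2 and 3, and 37.6, 42.3 and 37.7 in TKO. The log2 fold change of -0.77 ± 0.41 (SE, 95% interval -1.71 to 0.17) did not pass (edgeR, adjusted p = 0.947) and was 0.02 without Ctrl replicate 1.

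A processed pseudogene of Tdg, Tdg-ps2, varied in the opposite way. It was 0.0606 CPM in Ctrl replicate 1, and 32.6 and 25.4 in Ctrl replicates 2 and 3 and 30.2, 31.9 and 21.9 in TKO replicates 1, 2 and 3. So the library with by far the most Tdg was the one with almost no Tdg-ps2. The whole annotated pseudogene, 1194 bases, aligned to the Tdg transcript with 9 substitutions and no gap (99.2% identity), nearly all of it within the coding sequence, and the longest run without a difference was 756 bases. The 200 coding bases of Tdg that hold the most of these substitutions, 5 of 9, are shown with the matching stretch of Tdg-ps2 to show how few letters tell reads of the pair apart; both are from the GENCODE vM39 transcripts, 5′ to 3′, and capitals mark the letters that differ.
Tdg: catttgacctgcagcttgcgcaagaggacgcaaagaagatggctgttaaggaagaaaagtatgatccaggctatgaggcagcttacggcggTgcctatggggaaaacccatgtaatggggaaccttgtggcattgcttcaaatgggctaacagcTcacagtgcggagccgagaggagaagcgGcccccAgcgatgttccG
Tdg-ps2: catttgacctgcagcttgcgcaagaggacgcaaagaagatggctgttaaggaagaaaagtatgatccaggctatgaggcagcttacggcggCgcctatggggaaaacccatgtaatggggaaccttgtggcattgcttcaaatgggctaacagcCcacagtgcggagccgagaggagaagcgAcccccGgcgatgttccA

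Reads from such a pair can be assigned to either gene. How they were split here was not tested, and the level of Tdg is uncertain. The sum of Tdg and its 3 near-identical processed pseudogenes (Tdg-ps2, Tdg-ps and Gm5597) was 124, 73.8 and 62.3 CPM in Ctrl and 68.0, 74.4 and 59.6 in TKO. Ctrl replicate 1 was still the highest, and the log2 fold change of the sum was -0.36 (edgeR, adjusted p = 1.0), a comparison added after the data were seen. Uqcc6, which overlaps Tdg on the other strand without sharing exonic bases, was also highest in Ctrl replicate 1, at 6.87 CPM against 2.21, 1.97, 3.08, 3.08 and 3.12 in the other libraries. Glt8d2, which shares 5389 exonic bases with Tdg on the other strand, was lowest there, at 3.34 against 4.34 to 7.19. Ctrl replicate 1 also held the lowest sums of the fibroblast genes (1203 CPM against 2162 to 3358) and of 5 erythroid genes (20.1 against 65.4 to 141). Among 14054 genes above 1 CPM on average, 18 were over 2-fold above every other library in Ctrl replicate 1, against 5, 4, 0, 121 and 14 in Ctrl replicates 2 and 3 and TKO replicates 1, 2 and 3. Below 0.5 of every other library, the direction of Tdg-ps2 in Ctrl replicate 1, were 118 genes there, against 172, 28, 44, 31 and 67 in the same order. What set Tdg and Tdg-ps2 apart in that library was not tested.

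**Figure D3:**
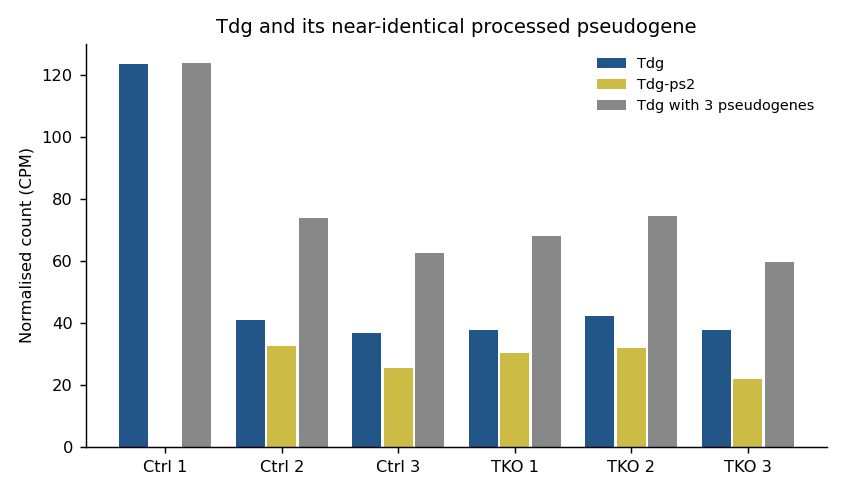
Normalised counts (CPM) of Tdg (blue), Tdg-ps2 (yellow) and Tdg summed with its 3 near-identical processed pseudogenes (grey) in each of the 6 samples. Tdg is 123 and Tdg-ps2 0.0606 in Ctrl 1, whereas Tdg is between 36.6 and 42.3 and Tdg-ps2 between 21.9 and 32.6 in the other 5.

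Levels were compared between genes after division by length, as CPM per kilobase of exonic sequence. Uhrf1 was the highest in Ctrl at 66.7 ± 6.39 CPM per kilobase (SD, n = 3), followed by Dnmt1 at 42.0 ± 3.94, Tet3 at 28.4 ± 5.86 and Dnmt3a at 14.1 ± 1.66. Tdg (7.09 ± 5.18), Tet2 (5.45 ± 0.290) and Hells (4.66 ± 1.21) came next, and their Ctrl ranges overlapped, so their order was not settled. The range of Tdg also overlapped that of Dnmt3a, through Ctrl replicate 1. Dnmt3b (2.57 ± 0.245), Tet1 (1.05 ± 0.191) and Dnmt3l (0.370 ± 0.0474) formed the low end, each apart from its neighbours. With the length of the longest transcript in place of all exonic bases, the order changed only in that Tet2 came before Tdg. In TKO the means of Uhrf1 (68.1 ± 2.11), Dnmt1 (45.4 ± 1.72), Tet3 (29.8 ± 2.25) and Dnmt3a (15.9 ± 1.94) were in the same order.

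The balance within each enzyme class was measured as the share of each gene in the summed CPM per kilobase. Dnmt1 made up 71.6% ± 0.915 of Dnmt1, Dnmt3a and Dnmt3b in Ctrl and 69.9% ± 2.89 in TKO (SD, n = 3), a difference of -1.68 percentage points (exact permutation test, two-sided, p = 0.4, adjusted p = 0.8 over 6 shares). It was -0.526 without TKO replicate 2 and -3.29 without TKO replicate 3. Dnmt3b was 4.23%, 4.31% and 4.62% in Ctrl and 5.63%, 6.80% and 4.65% in TKO. Its groups did not overlap, by a narrow margin at TKO replicate 3, and p was 0.1, the smallest that 3 against 3 samples allow in the exact permutation test (adjusted p = 0.6). Dnmt3a held 24.0% ± 0.769 in Ctrl and 24.4% ± 1.90 in TKO.

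Tet3 was 81.0% ± 4.08 of the 3 Tet genes in Ctrl and 80.1% ± 2.27 in TKO (exact permutation test, two-sided, p = 0.8, adjusted p = 0.96). The difference of -0.826 percentage points turned in sign without Ctrl replicate 1 (0.496), Ctrl replicate 3 (0.201) or TKO replicate 1 (0.00745), and was -3.18 without Ctrl replicate 2, -0.368 without TKO replicate 2 and -2.12 without TKO replicate 3. The lowest Tet3 share, 76.3%, was that of Ctrl replicate 2. Tet2 held 15.9% ± 3.22 and 16.1% ± 1.99, and Tet1 3.09% ± 0.906 and 3.78% ± 0.295 in Ctrl and TKO. The shares of Tet1 overlapped, although its CPM did not, because Ctrl replicate 2, with the lowest Tet3, had a Tet1 share of 4.08%. No share reached an adjusted p under 0.05, and with 3 samples a group none could.

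**Figure D4:**
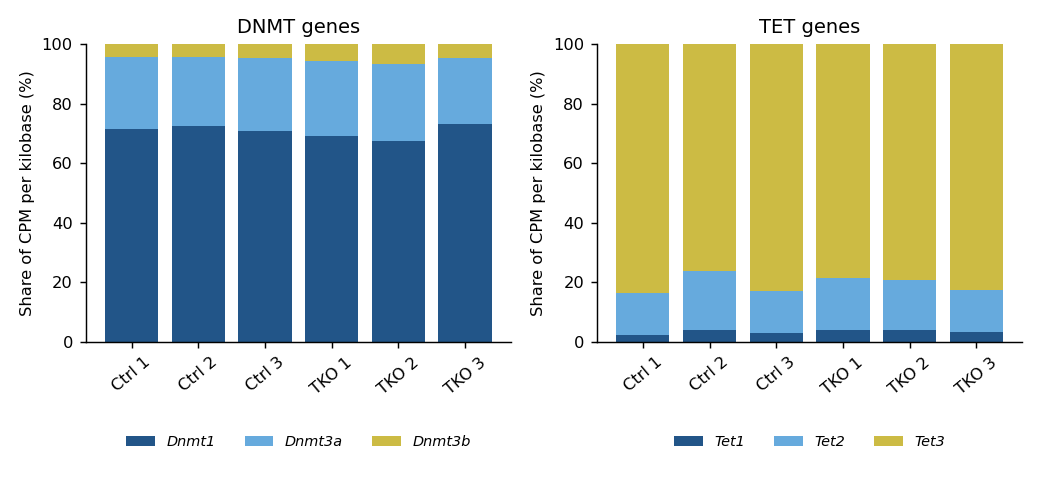
Share (%) of each gene in the summed CPM per kilobase of Dnmt1, Dnmt3a and Dnmt3b (left) and of Tet1, Tet2 and Tet3 (right), as stacked bars for each of the 6 samples. Dnmt1 takes between 67.6% and 73.1% and Tet3 between 76.3% and 83.6% in every sample of either group.

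Across the 6 libraries the members varied to different degrees. The coefficient of variation of CPM was 6.42% for Uhrf1, 7.55% for Dnmt1, 10.2% for Tet2, 12.6% for Dnmt3a and 13.9% for Tet3, and it reached 25.8% for Dnmt3b, 39.1% for Dnmt3l and 65.0% for Tdg. The pairs that varied together most closely were Dnmt3a with Dnmt3b (Pearson r of log2(CPM + 0.1) = 0.852), Hells with Tet1 (0.811) and Dnmt1 with Uhrf1 (0.806), over 6 libraries that the genes share. Of the tested genes outside the family, those most like Uhrf1 were Gm37968 (0.994), Plcg2 (0.994) and Grid1 (0.989), those most like Dnmt3a were Gm50012 (0.999), Krt74 (0.992) and Gm48965 (0.990), and those most like Tet1 were Plagl1 (0.993), 4930503L19Rik (0.985) and Pcdhga2 (0.982). With 6 points and 20622 genes to choose from, these values describe the libraries only.

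Genes that work with the family were taken from hand-written lists, which held 137 genes, 115 of them tested. edgeR called 0 of the 115, and DESeq2 called 2 higher and 0 lower, against 0.936% and 0.102% of all tested genes. The 2 were Tdrd1 and Ddx4, and Ddx4 passed the low-count filter only through TKO. At an unadjusted p under 0.05 in edgeR, 6 were higher and 0 lower, against 4.06% and 2.02% of all tested genes.

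Of 16 partners of the DNA methyltransferases, 14 were tested, with a median log2 fold change of 0.01. The most abundant were Nsd1, an H3K36 methyltransferase, at 519.6 CPM in Ctrl and 544 in TKO, and Trim28, the co-repressor that brings Setdb1 to DNA, at 425 and 400.3. The largest difference was that of Zfp57, a zinc finger protein that protects imprinted methylation, at 4.35, 6.21 and 6.49 CPM in Ctrl and 8.68, 11.1 and 7.19 in TKO (log2 fold change 0.66 ± 0.25 SE; edgeR, adjusted p = 0.730). Trdmt1, a tRNA methyltransferase of the same protein family, was 4.85 CPM in Ctrl and 6.62 in TKO (0.45 ± 0.23), also without overlap. These 2 of the 14 were higher in every TKO sample and 1, Zbtb24, was lower in every one (-0.10 ± 0.14), against 6.35% and 5.11% of all tested genes.

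All 10 readers of methylated DNA were tested, all had an absolute log2 fold change under 0.5, and in none were the groups apart. Their summed level was between 673 and 721 CPM. Mbd2 was the most abundant (126 CPM in Ctrl and 120.2 in TKO), followed by Mbd6 (86.3 and 98.7), and the largest differences were those of Zbtb38 (-0.24 ± 0.17 SE) and Mbd5 (0.22 ± 0.15). Of 18 genes of base excision repair and cytidine deamination, 16 were tested, with a median of -0.04. Parp1 (175 and 170.5 CPM) and Lig3 (139 and 144) led, and the largest differences were in genes with few counts, Apobec1 (0.59 ± 0.83) and Neil2 (0.50 ± 0.47).

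The TET enzymes need α-ketoglutarate, which Idh enzymes make, and bind Ogt. Ogt was 317 CPM in Ctrl and 324 in TKO, and Idh2 148 and 122 (-0.28 ± 0.14 SE). Cxxc4, whose protein binds unmethylated CpG and Tet2, was 0.565, 0.913 and 1.08 CPM in Ctrl and 1.31, 3.07 and 1.09 in TKO (log2 fold change 1.10 ± 0.49; edgeR, adjusted p = 0.816), the groups being apart by a narrow margin. All 8 genes of this list were tested, with a median of 0.02.

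The methyl donor of the DNA methyltransferases is S-adenosylmethionine. Of 15 genes of its cycle 12 were tested, 2 of them with a log2 fold change above 0, and the median was -0.13. Mtr, the methionine synthase, was 42.3, 45.4 and 42.0 CPM in Ctrl and 68.6, 90.4 and 45.6 in TKO (0.66 ± 0.22 SE; edgeR, adjusted p = 0.583), with TKO replicate 3 close to Ctrl. Gnmt, which uses up the donor, was 4.73 and 3.71 CPM (-0.35 ± 0.28), and the abundant folate enzymes Shmt2 (185 and 166) and Mthfd1 (166 and 160.1) overlapped between groups. Mat2a, which makes the donor, and Ahcyl2 were lower in every TKO sample (-0.27 ± 0.14 and -0.22 ± 0.13), as were 5.11% of all tested genes, and both were named after their values were seen.

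**Figure D5:**
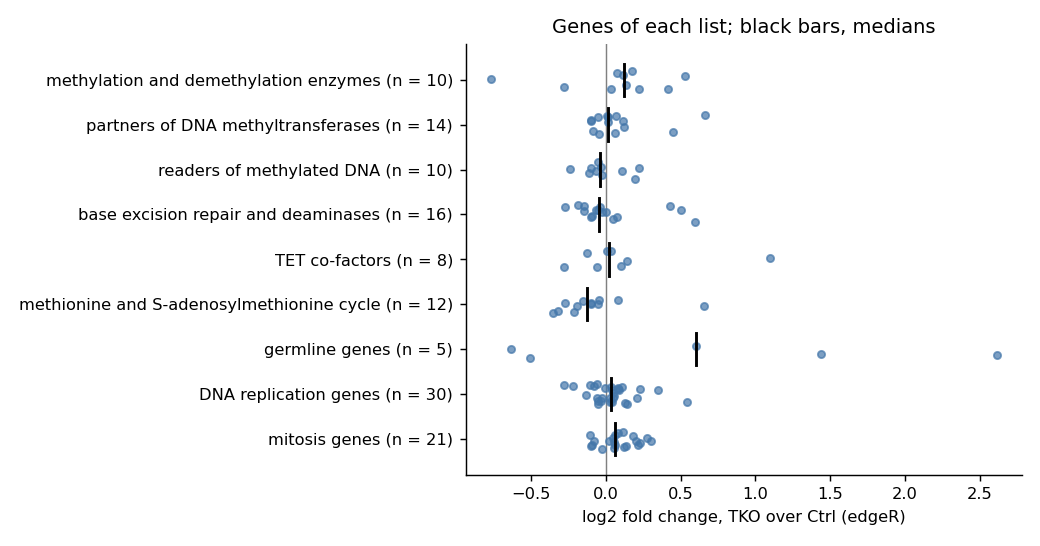
Log2 fold change, TKO over Ctrl, of each tested gene (points) in the family and in 8 lists of related genes, with black bars at the medians. Medians of 8 of the 9 rows lie between -0.13 and 0.12, and the 5 tested germline genes range from -0.64 to 2.62. The highest of these is Ddx4, which passed the low-count filter only through TKO.

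Promoters of germline genes are methylated in somatic cells and such genes are widely used as a readout of the family, so 20 of them were followed. Only 5 had enough counts to be tested. Tdrd1, a Tudor protein of the piRNA pathway, was 14.3, 20.4 and 22.2 CPM in Ctrl and 41.9, 71.0 and 41.3 in TKO, so that every TKO sample was well above every Ctrl sample. Its log2 fold change was 1.44 ± 0.25 (SE, 95% interval 0.88 to 1.99), a fold of 2.71. This did not pass in edgeR (adjusted p = 0.0879) and did in DESeq2 (adjusted p = 9.63e-06). Ddx4, the germ cell RNA helicase, was 0.0606, 0.0619 and 0.0928 CPM in Ctrl and 0.433, 0.525 and 0.378 in TKO. Its log2 fold change was 2.62 ± 0.66 (SE), with an adjusted p of 0.296 in edgeR and 0.0427 in DESeq2. It held 6, 8 and 10 counts in Ctrl and 51, 58 and 46 in TKO. Ddx4 thus passed the low-count filter only through TKO, where it was high, and nothing is drawn from its call. Brdt, a bromodomain protein of the testis, was 2.79, 3.77 and 2.44 CPM in Ctrl and 2.34, 1.63 and 2.37 in TKO (-0.51 ± 0.32; adjusted p = 1.0 in edgeR), in the opposite direction. Dazl and Taf7l were at most 0.202 CPM, with overlapping groups. The other 15 had too few counts for a test, and 1 of them was at or under 3 counts in every library. The summed level of the list was 17.8, 24.5 and 25.9 CPM in Ctrl and 45.3, 74.3 and 45.7 in TKO, most of it Tdrd1.

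Because Dnmt1, Uhrf1 and Hells are used most by dividing cells, replication and mitosis genes were read beside them. All 30 replication genes were tested, 18 of them above 0, with a median log2 fold change of 0.04 and summed levels of 2466, 2495 and 2202 CPM in Ctrl and 2418, 2445 and 2464 in TKO. The most abundant were Rrm1 (249 and 257) and Mcm5 (184 and 188), and the largest differences were those of Gmnn, the licensing inhibitor (0.54 ± 0.27 SE; edgeR, adjusted p = 0.895), and Rrm2, a ribonucleotide reductase subunit (0.35 ± 0.13; adjusted p = 0.729). Of the 30, Rrm2 and Pole (0.23 ± 0.13) were higher in every TKO sample and Mcm6 (-0.22 ± 0.14) was lower in every one. This held for 6.35% and 5.11% of all tested genes. All 21 mitosis genes were tested, with a median of 0.06, and none was apart between groups. Of the 21, 16 were above 0, where 51.9% of all tested genes were. Mki67 was 395, 716 and 386 CPM in Ctrl and 623, 419 and 374 in TKO, and Top2a 427, 564 and 317 and 534, 494 and 334, so both spread over nearly the same range in each group. Bub1 (0.30 ± 0.20) and Ube2c (0.27 ± 0.18) had the largest differences of that list.

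Markers of other cells that moved with the groups are given here because Dnmt3b, Tet1, Tdrd1 and the others named above were measured in the same libraries. The 7 skeletal muscle genes summed to 3.71, 10.8 and 7.11 CPM in Ctrl and 34.4, 35.9 and 34.7 in TKO, with Ttn the most abundant and Myod1 at most 0.353. edgeR called 1 of the 7 higher and DESeq2 4, against 0.131% and 0.936% of all tested genes. The 1 was Myh3, the embryonic myosin heavy chain, at 0.656, 0.758 and 0.501 CPM in Ctrl and 3.87, 3.46 and 4.37 in TKO. Its log2 fold change was 2.61 ± 0.34 (SE), with an adjusted p of 0.0211 in edgeR. The 4 Merkel cell genes summed to 3.32, 3.41 and 5.12 in Ctrl and 1.36, 0.634 and 1.79 in TKO, led by Sox2, and Krt20 was at 0 in TKO replicates 1 and 2. All 3 that were tested were lower in every TKO sample, as were 5.11% of all tested genes, with a median log2 fold change of -2.46. At an unadjusted p under 0.05 in edgeR all 3 were lower, against 2.02% of all tested genes, but edgeR called none. DESeq2 called Isl1 lower (-2.57 ± 0.58 SE, adjusted p = 0.217 in edgeR and 0.0136 in DESeq2), against 0.102% of all tested genes. Isl1 held 61, 66 and 72 counts in Ctrl and 16, 7 and 12 in TKO. It thus passed the low-count filter through Ctrl, where it was high, and nothing is drawn from its call. The basal keratin Krt15 was 2461 CPM in Ctrl and 1089 in TKO (-1.18 ± 0.26 SE), which was not called by edgeR (adjusted p = 0.185) and was by DESeq2 (adjusted p = 0.000660). Of the 8 basal genes, 4 had a log2 fold change above 0 and the median was -0.0023. Itgb4 was higher in every TKO sample (0.24 ± 0.15 SE), and Itga6 (0.03), Trp63 (0.08) and Epcam (0.13) overlapped between groups. Krt5 (-0.44 ± 0.20), Krt14 (-0.30 ± 0.18) and Col17a1 (-0.04 ± 0.17) went the other way and overlapped too. The 6 suprabasal genes summed to 18627.5, 18230 and 20102 CPM in Ctrl and 16298, 12328 and 13071 in TKO. Of these, 2 had a log2 fold change above 0 and the median was -0.04. Krt1 (-0.51 ± 0.18 SE) and Krt10 (-0.42 ± 0.17) were lower in every TKO sample, as were 5.11% of all tested genes. Neither was called by edgeR or DESeq2. Loricrin (0.49 ± 0.70), Sbsn (0.41 ± 0.36), Krtdap (-0.03) and Ivl (-0.05) overlapped between groups. Sums of the 6 melanocyte genes (led by Dct), the 4 endothelial (Cdh5) and the 5 immune genes (Cd74) were between 2.87 and 61.2 CPM and overlapped between groups, as did the 5 erythroid genes, led by Hba-a1. Cd74 itself was higher in every TKO sample (0.67 ± 0.34 SE), as were 6.35% of all tested genes, while Ptprc and Tyrobp overlapped between groups. Within the melanocyte list, Mlana was 0.141, 0.0155 and 0.167 CPM in Ctrl and 0.994, 1.53 and 0.304 in TKO (3.13 ± 0.86 SE, adjusted p = 0.360 in edgeR). It was the 1 gene of that list that DESeq2 called (adjusted p = 0.0206). Mlana held 14, 2 and 18 counts in Ctrl and 117, 169 and 37 in TKO. It thus passed the low-count filter through TKO, where it was high, and nothing is drawn from its call. The cells had been sorted as Epcam+ α6+, and the paper reads its raised germline, muscle, cardiac and neuronal genes as non-lineage genes released from repression. Whether these transcripts came from other cells or from keratinocytes was not tested. The part of any such cells in the values of the 10 enzymes was not tested either.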

How the data were processed

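RNA-seq of 3 Ctrl and 3 TKO samples was re-analysed from raw counts. The authors depleted rRNA, sequenced paired ends, trimmed with fastp, aligned with STAR and deposited whole-number counts per Ensembl gene, not normalized and not pooled. The methods name GRCm39 and the submitters' processing notes GRCm38, and the counting program, annotation and strand setting are not given in the sources used here, so reads of genes that overlap on opposite strands or have near-identical copies could be shared. Symbols and lengths came from GENCODE vM39 (51477 of 55536 identifiers matched), and positions and promoters from RefSeq on GRCm38.p6.

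Groups, replicate numbers and sexes followed the sample labels. The main test was that of edgeR 4.0.16 in R 4.3.3 (filterByExpr at 10 counts and a total of 15, TMM, robust quasi-likelihood fit; p-values adjusted by Benjamini-Hochberg over all 20622 genes tested) and, as an alternative, DESeq2 1.42.0. With total counts of 102159175 to 136515436, 3 counts, the limit that a count of 0 allows, equal 0.0232 to 0.0303 CPM. Intervals and this limit cover counting error or the spread of these samples only. Levels between genes are CPM divided by kilobases of merged exons. Shares were compared by exact permutation over samples and adjusted over 6 shares. Near copies were sought with blastn 2.17.0 (at least 90% identity over 300 bases) among GENCODE transcripts. The scripts were tested on simulated data.

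Named genes are the 10 members, the targeted genes, in each list of related genes the called ones, the 2 with the largest change and the 2 most abundant, the most abundant marker of each cell type (1 marker list is not reported here), and the 3 genes most like Uhrf1, Dnmt3a and Tet1 by Pearson r of log2(CPM + 0.1). Other named genes were chosen after their values were seen: those that overlap or copy a member, further marker genes, and Zbtb24, Mael, Dazl, Taf7l, Mat2a, Ahcyl2, Pole and Mcm6. The members, lists and tests were chosen with earlier results of these data known. Alternatives were other size factors, DESeq2, other low-count filters, the replicate number as a block, sex as a factor, no robust estimation, the top 3 identifiers left out of library sizes, each library left out, other thresholds and, for shares, other lengths.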

Additional observations from a re-analysis of the deposited data

How the results depend on the processing

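No alternative called any of the 10 enzymes, and their median log2 fold change stayed above 0, between 0.07 and 0.17. Of 141 values of single members, 137 kept their direction. The exceptions were Uhrf1 without a low-count filter (-0.0030) and without Ctrl replicate 2 (-0.031), Tet3 without Ctrl replicate 2 (-0.088) and Tdg without Ctrl replicate 1 (0.017). With 1 library left out, the value was between -0.031 and 0.11 for Uhrf1, between -0.088 and 0.19 for Tet3 between -1.07 and 0.017 for Tdg and between -0.95 and -0.021 for Dnmt3l. Over all alternatives it was between 0.053 and 0.19 for Dnmt1, 0.081 and 0.27 for Dnmt3a, 0.39 and 0.68 for Dnmt3b, 0.057 and 0.43 for Hells, 0.27 and 0.49 for Tet1, and 0.024 and 0.21 for Tet2. Removing the low-count filter moved the median log2 fold change of all tested genes from 0.01 to -0.11, with 39690 genes in place of 20622. The number of genes called in all, 27 as reported, was 214 with DESeq2 (193 higher, 21 lower), 235 without a low-count filter, 9 with 10 counts required in every library, 45 with the replicate block, 11 at an adjusted p under 0.01 and between 7 and 81 with 1 library left out: 8, 7 and 8 without Ctrl replicates 1, 2 and 3, and 25, 15 and 81 without TKO replicates 1, 2 and 3. Calls among the genes of the related lists that passed each filter, 0 of 115 as reported, were 2 with DESeq2 (Tdrd1 and Ddx4), 2 without a low-count filter (Tdrd1, and Mael, which is not among the 115), 1 with the replicate block (Tdrd1), and between 0 and 1 with 1 library left out, the 1 being Tdrd1 without TKO replicate 3. Mael held 0 counts in every Ctrl sample and in TKO replicate 1, and 20 and 56 in TKO replicates 2 and 3. Its groups overlapped, and nothing is drawn from its call. The median of the tested germline genes was 0.60 over 5 genes and between 0.10 and 2.12 under the alternatives, which did not all test the same genes. That 0.60 was the value of Dazl (SE 1.34), which held between 0 and 23 counts a library, with overlapping groups. Ddx4, which passed the low-count filter only through TKO, was among the 5, so nothing is drawn from this median. The TKO minus Ctrl difference in the Tet3 share, -0.826 percentage points, was between -3.18 and 0.496 with 1 library left out; it turned to 0.496 without Ctrl replicate 1, 0.201 without Ctrl replicate 3 and 0.00745 without TKO replicate 1. That in the Dnmt1 share was between -3.29 and -0.526. Apart from the low-count filter, the cause of these changes was not tested.

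Samples of the same number do not share a stated litter or batch. Their deviations from the group means correlated at 0.168, 0.0873 and 0.127 for numbers 1, 2 and 3, so not every pair passed 0.1, and the replicate block was kept as an alternative only. Each library correlated best with its own number, a hint from the data and not from the design. Of the 20 germline genes, 15 held too few counts to be tested.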
